A study of Bos taurus with 64 samples.

Results

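Myostatin, the product of MSTN, was followed in 2 muscles of 32 cows through the probe that carries the name MSTN on the array. This was 1 probe, printed as 1 spot, of 13285 probes for 5449 transcripts. The MSTN results below are the signal of this probe, cow by cow, across muscle, stress and diet. Other probes and genes are set beside it where named.

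The study asked how handling before slaughter changes muscle gene expression. All animals were Normand cows, aged 4.5 years, finished for 101 d on straw and concentrate with 40 g of lipids per kg of dry matter from linseed and rapeseed. Cows on the EP diet also received vitamin E and the PERP plant extracts (Lipid VitE PERP in the labels), and cows on the control diet did not (Lipid-rich in the labels). Stressed cows (Moderated stress in the labels) were isolated in the lorry and spent 30 min in a labyrinth on a farm they did not know, whereas limited stress cows were handled calmly. The longissimus thoracis of the back (LT) and the semitendinosus of the hind limb (ST) were taken within 15 min of slaughter. There were 8 cows in each of the 4 combinations of stress and diet, and each cow gave 1 array per muscle, or 64 arrays in all. A cow is the replicate, and the labels tie the LT and the ST of a cow through its number.

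Myostatin is a secreted protein of the TGF-beta family, made mainly by skeletal muscle fibres, that restrains muscle growth. It is cut from a precursor, is held inactive by binding proteins such as follistatin, and signals through activin receptors to SMAD2 and SMAD3. Loss of its function in cattle gives the double-muscled phenotype. Its transcript is known to be more abundant in fast than in slow fibres, and its level responds to glucocorticoids in a way that differs between species and settings.

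The MSTN probe is a 60-base oligonucleotide. The array annotation places it at chr2:6537689-6537748 of the bovine assembly HGSC Btau_3.1, from base 1191 of the transcript, and gives no strand. It lies at the end of the coding sequence in the last exon, the part that encodes the mature signalling peptide, and only 1 of its 3 reading frames has no stop codon. A second probe of 50 bases, FS_MSTN, has no position or description in the files and is not a member by name. Its sequence overlaps the MSTN probe, so it serves as a second reading of the same RNA in the same hybridization and not as an independent measurement. The sequences are shown because the whole report rests on them, with the 46 bases they share in capitals.
MSTN probe: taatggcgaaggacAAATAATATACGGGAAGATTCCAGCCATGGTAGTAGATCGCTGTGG
FS_MSTN probe: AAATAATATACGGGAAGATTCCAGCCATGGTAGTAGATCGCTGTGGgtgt
No other probe of the array shared 20 bases in a row with either. Over the 63 arrays with both readings, the log2 signals of the probes differed by less than 0.25 in 61, and by 0.46 at most, with a Pearson correlation of 0.996 that describes the agreement within arrays.

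The signal is given as a percentage of the 75th percentile of the processed signals of the same array, a value that ranged from 2470 to 4202 intensity units over the arrays. Tests were made on the log2 of this ratio. The share of spots well above background was 71.4% to 80.9% per array, and the MSTN probe passed this mark on 63 of 64 arrays. The exception was the LT array of cow321, a stressed cow on the control diet. The scanner software marked the MSTN spot of the LT array of cow255 (limited stress, control diet) as uneven, so this value was left out and the LT has 31 values. FS_MSTN on that array read 4.93%. The arrays of the LT lay on 4 slides scanned on 2 days and those of the ST on 5 other slides scanned on 3 other days, so muscle and slide cannot be told apart by a comparison within slides. Skeletal muscle markers were present on the arrays of both muscles, and all 5 of the list with a named probe (ACTA1, CKM, DES, MB and MYH1) were tested.

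MSTN was higher in the ST than in the LT. Over all cows, the LT values had a lowest of 0.227%, a median of 7.11% and a highest of 14.9% (n = 31). In the ST the lowest was 1.32%, the median 15.9% and the highest 26.7% (n = 32). The muscles overlapped over part of their range, but within a cow the order was nearly always the same: the ST signal was the higher in 28 of 31 cows, and by FS_MSTN in 29 of 32. The median fold of ST over LT within a cow was 2.37, with a range from 0.516 in cow301 to 6.34 in cow314.

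The model of both muscles gave a log2 difference (LT minus ST) of -1.22 (SE 0.230, 95% confidence interval -1.68 to -0.76, adjusted p = 1.16e-05, limma), or 2.32-fold less in the LT. The mean difference within cows was 1.19 on the log2 scale (SD 0.811, n = 31, two-sided sign-flip permutation test with 100000 resamples, p = 1e-05, the smallest they can give). Differences between these muscles were common: 51.7% of the 4230 tested transcripts were called, 29.9% as lower in the LT and 21.9% as higher. The size of the MSTN difference was rarer, as only 44 transcripts of the 4230, MSTN included, had a log2 difference at least as large. The model of both muscles took the 2 arrays of a cow as independent. With the cow as a replicate block the difference was -1.21 (SE 0.168, adjusted p = 9.32e-09, limma). With the slide as a random block the difference was -1.21 (SE 0.302, adjusted p = 0.00101, limma). Without cow321 the limma difference was -1.16 (adjusted p = 1.68e-09). All 3 cows with less MSTN in the ST than in the LT, cow299, cow301 and cow305, were stressed, and they shared LT slide 7 and ST slide 3, on which 5 of 8 cows were stressed.

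**Figure D1:**
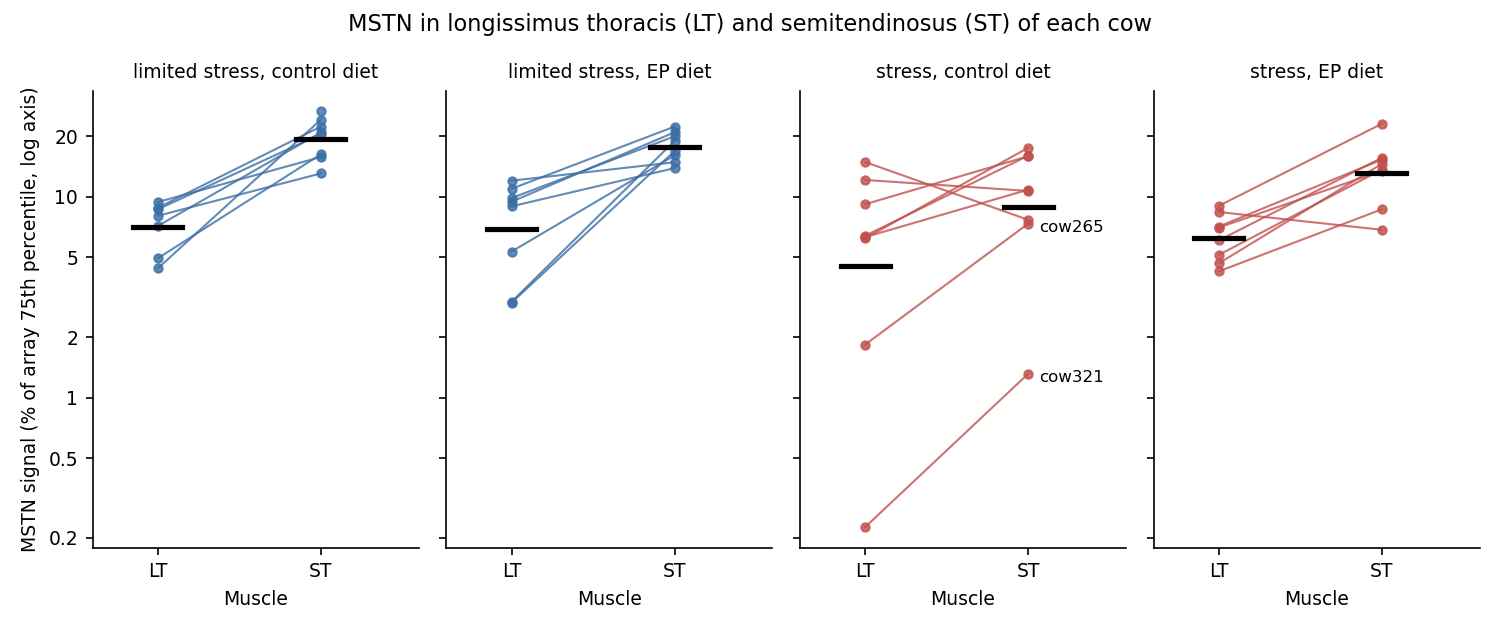
MSTN signal, as a percentage of the 75th percentile of the array on a log axis, in the LT and the ST of each cow, with 1 line per cow and 1 panel for each combination of stress and diet. Black bars are geometric means. The lines rise from LT to ST in 28 of 31 cows, and cow321 lies below every other cow in both muscles (cow255 has no LT value).

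Fibre type genes differed between the muscles beside MSTN. Of the slow fibre genes, 5 of 7 were higher in the LT and 1 was lower, with a median log2 difference of 0.50 against -0.03 over all transcripts. The largest differences were those of TNNT1 (0.91, adjusted p = 9.84e-09), the slow troponin T, of ATP2A2 (0.64, adjusted p = 4.59e-04), the slow calcium pump, and of MYL3 (0.51, adjusted p = 0.0174), a slow myosin light chain. The lower gene was MYH7, the slow myosin heavy chain (-0.11, adjusted p = 0.00595, limma). MYL2 of the same list was not called (0.02, adjusted p = 0.79, limma). Of the fast fibre genes, 7 of 7 were lower in the LT, with a median of -0.17, the largest in size being PVALB (-4.11, adjusted p = 3.51e-12), a calcium buffer of fast fibres, TNNC2 (-0.17, adjusted p = 1.30e-04) and MYH1 (-0.17, highest adjusted p of 2 probes 5.95e-04). General markers of skeletal muscle were lower in the LT too, 5 of 5, with a median of -0.18. The summed signal of the slow list, in multiples of the 75th percentile, ranged from 212 to 353 in the LT of stressed cows and from 147 to 329 in their ST. The part of fibre composition or of the general muscle markers in the MSTN difference was not tested, and in whole muscle fewer cells of a type cannot be told apart from less RNA per cell.

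MSTN was lower in the ST of stressed cows. In limited stress cows the ST signal had a lowest of 13.1%, a median of 19.5% and a highest of 26.7% (n = 16). In stressed cows the lowest was 1.32%, the next 6.85%, the median 13.6% and the highest 23.1% (n = 16). The groups overlapped, but 15 of 16 stressed cows lay below the limited stress median and 7 lay below every limited stress cow. The log2 difference was -0.79 (SE 0.237, 95% confidence interval -1.27 to -0.30, adjusted p = 0.0742, limma), a signal lower by 1.72-fold. Of the 4246 transcripts tested in the ST, 2.12% were called as lower with stress and 1.48% as higher. Permutation of the stress labels within diets gave p = 4.2e-04 (two-sided, 100000 resamples, n = 32), and FS_MSTN had a log2 difference of -0.83 (adjusted p = 0.0720, limma).

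Without cow321 the difference was smaller but more precise (-0.59, SE 0.149, adjusted p = 0.0248, limma; permutation p = 5.2e-04). The call was lost when any 1 of 6 other cows was left out (cow255, cow270, cow299, cow301, cow324 or cow331, adjusted p from 0.102 to 0.131, limma). It was also sensitive to the slides, to the scaling and to a fit of all 64 arrays with the cow as a block. The stressed and limited stress cows were spread unevenly over the ST slides. The log2 difference within slides was -0.20 on slide 1 (2 stressed and 3 limited stress cows), 0.06 on slide 2 (2 and 6), -1.04 on slide 3 (5 and 3), -1.10 on slide 4 (1 and 3) and -1.22 on slide 9 (6 and 1). With the slide as a block the difference was -0.74 (SE 0.300, adjusted p = 0.330, limma), and with the scan day as a block -0.70 (adjusted p = 0.256). In the fit of all 64 arrays with the cow as a replicate block it was -0.79 (SE 0.306, adjusted p = 0.183). That fit shares 1 estimate of the spread over both muscles. The SD within groups was 1.12 in the LT and 0.697 in the ST. The larger SE can therefore not be credited to the cow block alone. The sign was thus negative in each of these fits, while the adjusted p crossed the threshold of 0.1.

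**Figure D2:**
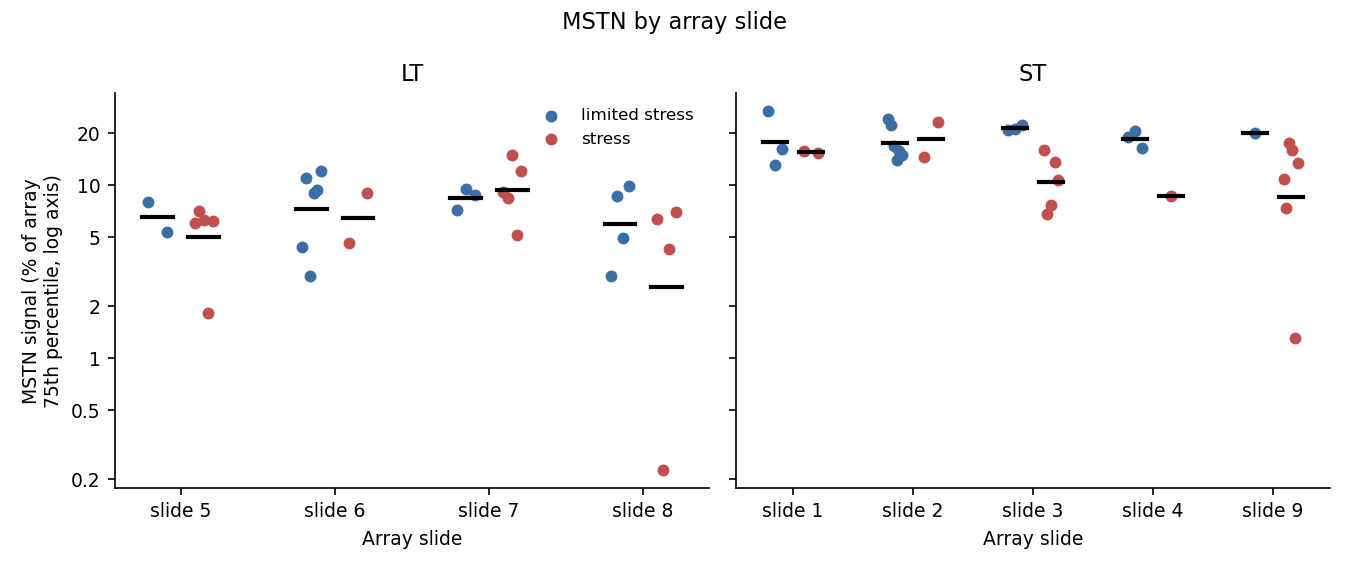
MSTN signal, as a percentage of the 75th percentile of the array on a log axis, by array slide and stress group, in the LT (left) and the ST (right). Points are cows and black bars geometric means. In the ST the stressed cows lie lower on slides 3, 4 and 9, and the group means lie close together on slides 1 and 2.

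In the LT a difference with stress was not detected. The limited stress cows had a lowest of 2.97%, a median of 8.66% and a highest of 12.0% (n = 15), and the stressed cows a lowest of 0.227%, a median of 6.35% and a highest of 14.9% (n = 16). Both the lowest and the highest value of this muscle were those of stressed cows, and 12 of 16 stressed cows lay below the limited stress median. The log2 difference was -0.40 (SE 0.386, 95% confidence interval -1.19 to 0.39, adjusted p = 0.645, limma; permutation p = 0.393, n = 31), where 1.53% of the 4311 tested transcripts were called as lower. Without cow321 it was -0.09 (SE 0.246, adjusted p = 0.897, limma).

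The stress effect was not shown to differ between the muscles. The interaction (LT effect minus ST effect) was 0.39 on the log2 scale (SE 0.459, 95% confidence interval -0.53 to 1.31, adjusted p = 0.999, limma), and 0 of 4230 transcripts were called for it, with 278 of 10254 probes at an unadjusted p below 0.05. Permuting the stress labels over the differences within cows gave p = 0.241 for MSTN (n = 31), and p = 0.115 without cow321. The first limma fit took the 2 arrays of a cow as independent. With the cow as a replicate block the interaction was 0.38 (SE 0.336, 95% confidence interval -0.30 to 1.05, adjusted p = 0.891, limma). Both intervals include 0, an effect of the same size in both muscles. They reach a ratio of the 2 effects of 2.48-fold in the first fit and 2.07-fold with the cow block.

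**Figure D3:**
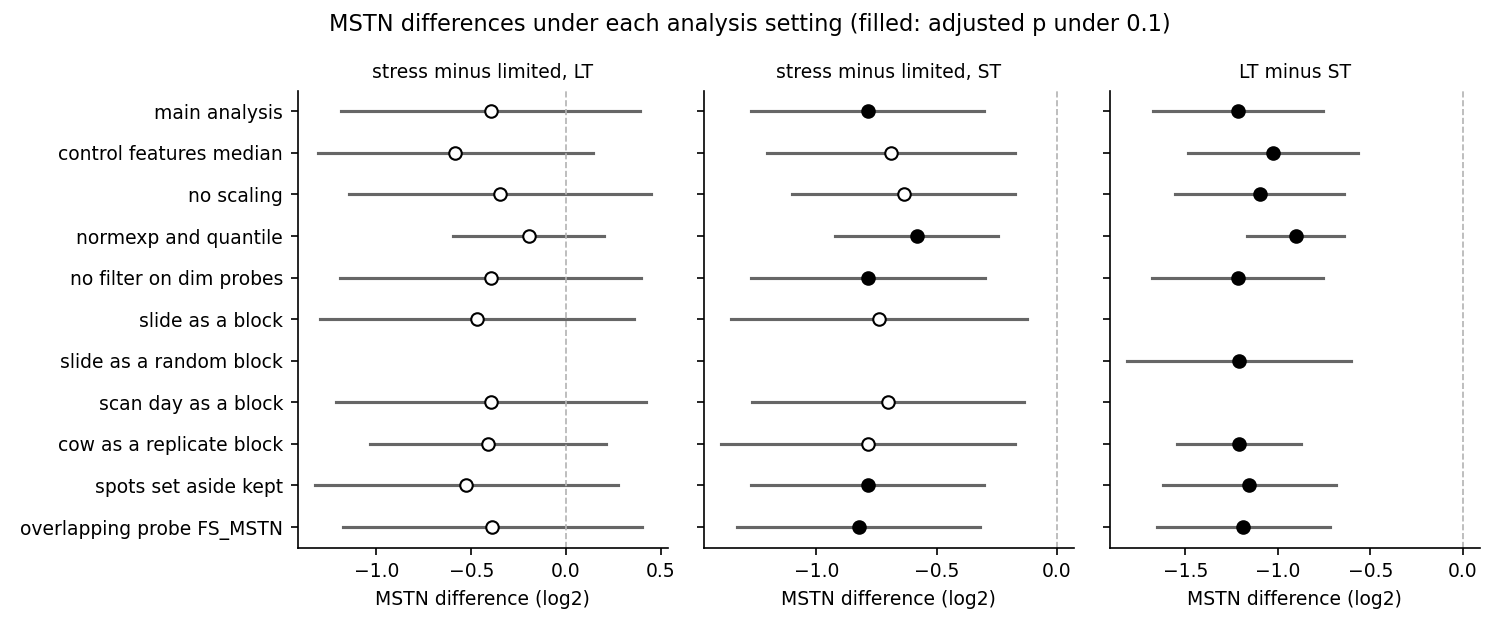
Log2 differences of MSTN with their 95% confidence intervals (limma) in the main analysis, under each alternative setting and for the overlapping probe, for stress in the LT, stress in the ST and LT minus ST. Filled points have an adjusted p under 0.1. All points of the 3 comparisons lie below 0, and those for stress in the ST are filled under part of the settings. Slide and scan day as fixed blocks were not possible for LT minus ST.

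No difference with diet was detected. In the LT the median was 7.16% on the control diet and 7.07% on the EP diet, and the log2 difference (EP minus control) was 0.22 (SE 0.386, 95% confidence interval -0.57 to 1.01, adjusted p = 0.999, limma). In the ST the medians were 16.0% and 15.5%, and the log2 difference was 0.22 (SE 0.237, 95% confidence interval -0.27 to 0.70, adjusted p = 0.949, limma). The positive values rested on cow321, which was on the control diet: without it they were -0.09 in the LT and 0.02 in the ST. Over the array, 0 transcripts were called for diet in either muscle, with 407 of 10441 (LT) and 531 of 10305 (ST) probes at an unadjusted p below 0.05.

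Stress and diet showed no called interaction on MSTN either. In the ST the stress effect was -1.14 on the control diet and -0.44 on the EP diet, a difference of 0.70 (SE 0.475, adjusted p = 0.971, limma), which was 0.30 without cow321. In the LT the effects were -0.65 and -0.14, a difference of 0.51 (SE 0.773, adjusted p = 1, limma), which turned to -0.11 without cow321. The effect of diet did not differ between the muscles beyond its error (0.00, SE 0.459, adjusted p = 1, limma). These 3 interactions gave 0 called transcripts over the array, with 491 of 10305, 276 of 10441 and 49 of 10254 probes at an unadjusted p below 0.05.

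The 8 groups fell in the following order of geometric means. The ST of limited stress cows came first, at 19.5% on the control diet (log2 SD 0.348, n = 8) and 17.8% on the EP diet (SD 0.246, n = 8). The ST of stressed cows followed, at 13.1% on the EP diet (SD 0.541, n = 8) and 8.88% on the control diet (SD 1.21, n = 8). The LT of limited stress cows stood at 7.09% on the control diet (SD 0.433, n = 7) and 6.92% on the EP diet (SD 0.825, n = 8), and the LT of stressed cows at 6.26% on the EP diet (SD 0.395, n = 8) and 4.52% on the control diet (SD 1.97, n = 8). None of the 7 pairs of neighbours in this order differed beyond the spread of the cows (exact two-sided permutation tests, lowest p = 0.0535, for limited stress against stress on the EP diet in the ST, and 0.374 after adjustment over the 7 pairs). The order came from these same means, so neighbours are close by construction. These tests cannot show whether groups farther apart differ. Without cow321 the means of the stressed control diet groups were 11.7% in the ST and 6.93% in the LT, which moved the latter above stress on the EP diet and above limited stress on the EP diet, and left the place of the former.

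Cow321 stood apart from all other cows. Its MSTN signal was 0.227% in the LT, at 7.84 intensity units, and 1.32% in the ST, at 49.7 units. The next lowest values were 1.84% in the LT (cow265, also stressed and on the control diet) and 6.85% in the ST (cow299), 8.10-fold and 5.21-fold higher. The LT value is near background and its size is therefore uncertain, but FS_MSTN gave 0.191% and 1.11% in the same arrays. Over the other cows, the highest value exceeded the lowest by 8.11-fold in the LT and 3.89-fold in the ST.

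The distance of cow321 was not limited to MSTN. Over the 10254 probes tested in both muscles, 29 had cow321 below every other cow by at least 2 log2 units in the LT and in the ST, the MSTN and FS_MSTN probes among them, and 13 had it above every other cow by as much. Many of these probes shared a transcript name with others on the same side, so they stand for fewer transcripts than probes. Only 1 other cow, cow277, had any probe so far below in both muscles, with 2. Of 31 myostatin pathway genes that were measured in both muscles of cow321, 3 were at their lowest of all cows in both (BMPR1A, MYOD1 and NR3C1) and 4 at their highest (FURIN, TCAP, CDKN1A and MYF6). The share of all tested genes at such an extreme in cow321 was not counted. No excess in the pathway can therefore be read from these counts. CDKN1A, a cell cycle inhibitor that myostatin can induce, exceeded the median of the other cows by 5.35 log2 units (LT) and 4.65 (ST). MYOD1, a determination factor of muscle cells, lay at -1.95 and -3.39 from that median, and NR3C1, the glucocorticoid receptor, at -1.71 and -1.52. FST, which encodes the antagonist follistatin, lay at -0.74 and -0.72, the third lowest of the cows in each muscle. The summed signals of the skeletal muscle markers in cow321 were 245 in the LT and 250 in the ST in multiples of the 75th percentile, the 4th and 3rd lowest of 32, so markers of the tissue itself were present. Its slow fibre sum was the 7th lowest in the LT and the lowest in the ST, its fat sum the 2nd lowest in both, and its satellite cell sum the 2nd lowest in the LT and the lowest in the ST. The software marked 88 spots of its LT array as uneven or outlying, the most of any LT array, and 45 of its ST array, against a median of 13.5 over all arrays. The part of these in its MSTN values was not tested.

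The spread of MSTN between cows was wide. The standard deviation within the groups of stress and diet was 1.12 on the log2 scale in the LT, against a median of 0.301 over 10441 tested probes, and 1.39% of the probes were more variable. In the ST it was 0.697, against a median of 0.281 over 10305 probes, with 8.34% more variable. Without cow321 the standard deviations were 0.70 (LT) and 0.427 (ST), and 7.02% and 24.3% of the probes were more variable. The mean distance of a cow from the median of its group was 0.613 in the LT and 0.395 in the ST (difference 0.22, sign-flip permutation p = 0.0689, n = 31). In the ST this distance was 0.551 in stressed and 0.237 in limited stress cows (difference 0.31, permutation p = 0.0638, n = 32), and in the LT 0.747 and 0.471 (p = 0.504, n = 31). Without cow321 the p-values of these 3 comparisons were 0.133, 0.130 and 0.898.

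A relation between a cow's level in the LT and in the ST was not detected once cow321 was left out. With the means of the groups of stress and diet removed, the LT and the ST signals of the same cow had a Pearson correlation of 0.673 (permutation p = 0.00381, adjusted p = 0.0114 over 3 correlations of MSTN) and a Spearman correlation of 0.420 (p = 0.0197, adjusted p = 0.0591, n = 31). Without the 2 cows farthest from the median in the LT, cow265 and cow321, Pearson's r was 0.18 (permutation p = 0.339, n = 29). Spearman's rho was then 0.32 (permutation p = 0.0933), and the group means subtracted were still those of all cows. Without cow321 alone, with the group means taken anew, Pearson's r was 0.10 (p = 0.606, n = 30) and Spearman's rho 0.04 (permutation p = 0.827). Without cow265 alone Pearson's r was 0.68 (adjusted p = 0.0289), so the relation rests on cow321. It was 0.78 within the stressed cows (p = 0.00855, n = 16), or 0.18 without cow321 (p = 0.539, n = 15), and -0.05 within the limited stress cows (p = 0.863, n = 15). By LT slide it ranged from -0.03 to 0.94, the latter on slide 8, which held cow321.

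**Figure D4:**
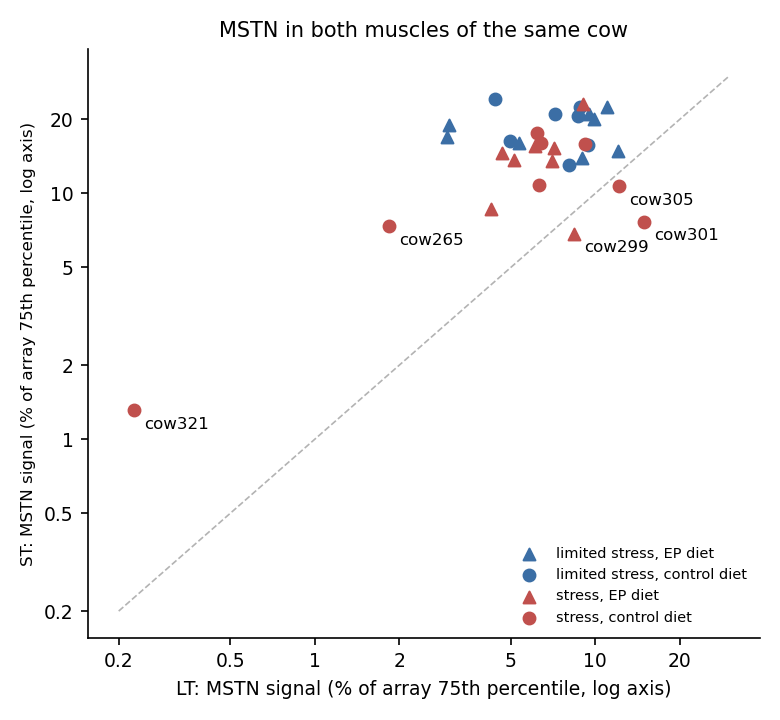
MSTN signal in the ST against that in the LT of the same cow, each as a percentage of the 75th percentile of its array on a log axis, with stress by colour and diet by symbol. The dashed line marks equal values. Cow321 lies far from the other cows in both muscles, and cow299, cow301 and cow305 are the only points below the line.

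Fibre type genes were also set against MSTN from cow to cow within a muscle. The mean log2 signal of the fast list minus that of the slow list had Pearson correlations with MSTN of 0.01 in the LT (Spearman 0.10, permutation p = 0.959 and 0.586, n = 31) and -0.05 in the ST (Spearman 0.28, permutation p = 0.780 and 0.127, n = 32). Without cow321 they were 0.23 in the LT (p = 0.216, n = 30) and 0.37 in the ST (p = 0.0379, adjusted p = 0.114 over 3 correlations, n = 31), where Spearman's rho was 0.44 (p = 0.0135, adjusted p = 0.0406). Without the 2 cows farthest from the median of the fibre measure they were -0.05 in the LT and -0.15 in the ST. Within stressed cows the values were -0.02 in the LT and -0.20 in the ST, and within limited stress cows 0.07 and 0.37, with no permutation p of Pearson's r below 0.162 in these 4. Spearman's rho in the ST of limited stress cows was 0.53 (permutation p = 0.0387, not adjusted, n = 16).

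The other genes of the myostatin pathway were taken from a list of 78 names, of which 34 were matched to a probe by its name or description and 32 passed the filter in both muscles. The other names of the list were not analysed here. Among them are SMAD7, which the study reported as responding to stress in both muscles, and GLUL, reported for the LT only. The counts below leave both genes out. TGFBR1, a type I receptor that myostatin can use, and PAX7, a satellite cell factor, did not pass. In the ST, 0 of the 32 were called as higher and 1 as lower with stress (1.48% and 2.12% of all tested transcripts were, or 3.60% called in all), and their median log2 difference was -0.11 against -0.06 over all transcripts. In the LT, 2 were higher (2.20% of all transcripts were) and 2 lower (1.53% were, or 3.73% called in all), with a median of 0.05 against -0.05.

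Among the ligands and the protease, none was called for stress in either muscle. GDF11, the closest relative of myostatin, is named here from the description of its probe and differed by 0.13 (LT) and 0.36 (ST) on the log2 scale (adjusted p = 0.851 and 0.470, limma). Between the muscles, INHBA, an activin subunit, was higher in the LT by 0.36 and TGFB3 by 0.67 (adjusted p = 0.0394 and 8.88e-05), opposite to MSTN. FURIN, a protease that cuts TGF-beta family precursors, was lower in the LT by 0.18 on the log2 scale (-0.18, adjusted p = 0.0281).

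Among the binding proteins, FST had stress differences of -0.22 (LT) and -0.38 (ST) on the log2 scale (adjusted p = 0.550 and 0.184, limma), and -0.19 between the muscles (adjusted p = 0.180). FSTL3, a follistatin-like antagonist, had 0.11 and 0.01 with stress, and was lower in the LT than in the ST (-0.19, adjusted p = 0.0710). DCN, the matrix proteoglycan decorin, had -0.01 and -0.06 with stress, and its 2 probes were not called between the muscles. TCAP, the sarcomeric protein telethonin, which can bind myostatin, was lower in the LT (-0.62, adjusted p = 7.17e-11), and INHA, the inhibin alpha subunit, was higher there (1.16, adjusted p = 1.78e-07). Neither was called for stress.

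Of the receptors, ACVR1, TGFBR2, BMPR1A, BMPR1B and BMPR2 were tested and 0 of 5 were called for stress in either muscle. The activin receptors ACVR2A, ACVR2B, ACVR1B and ACVR1C of the list were not matched to a probe and have no values here. BMPR1B and BMPR2, receptors of bone morphogenetic proteins, were lower in the LT than in the ST (-0.32 and -0.44), and TGFBR2 was higher there (0.31). Inside the cell, SMAD2 had stress differences of -0.02 (LT) and -0.05 (ST) on the log2 scale, and SMAD4, the shared partner of the SMADs, 0.03 and -0.08, none called. The probe named SMAD3 is described in the files as SMAD2, so which of these genes it reads is uncertain. It had 0.22 and -0.13, also not called. SMURF2, a ubiquitin ligase that acts on SMADs and receptors, rose with stress in the LT (0.46, SE 0.107, adjusted p = 0.0101, limma). Its ST difference was 0.17 (adjusted p = 0.195).

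**Figure D5:**
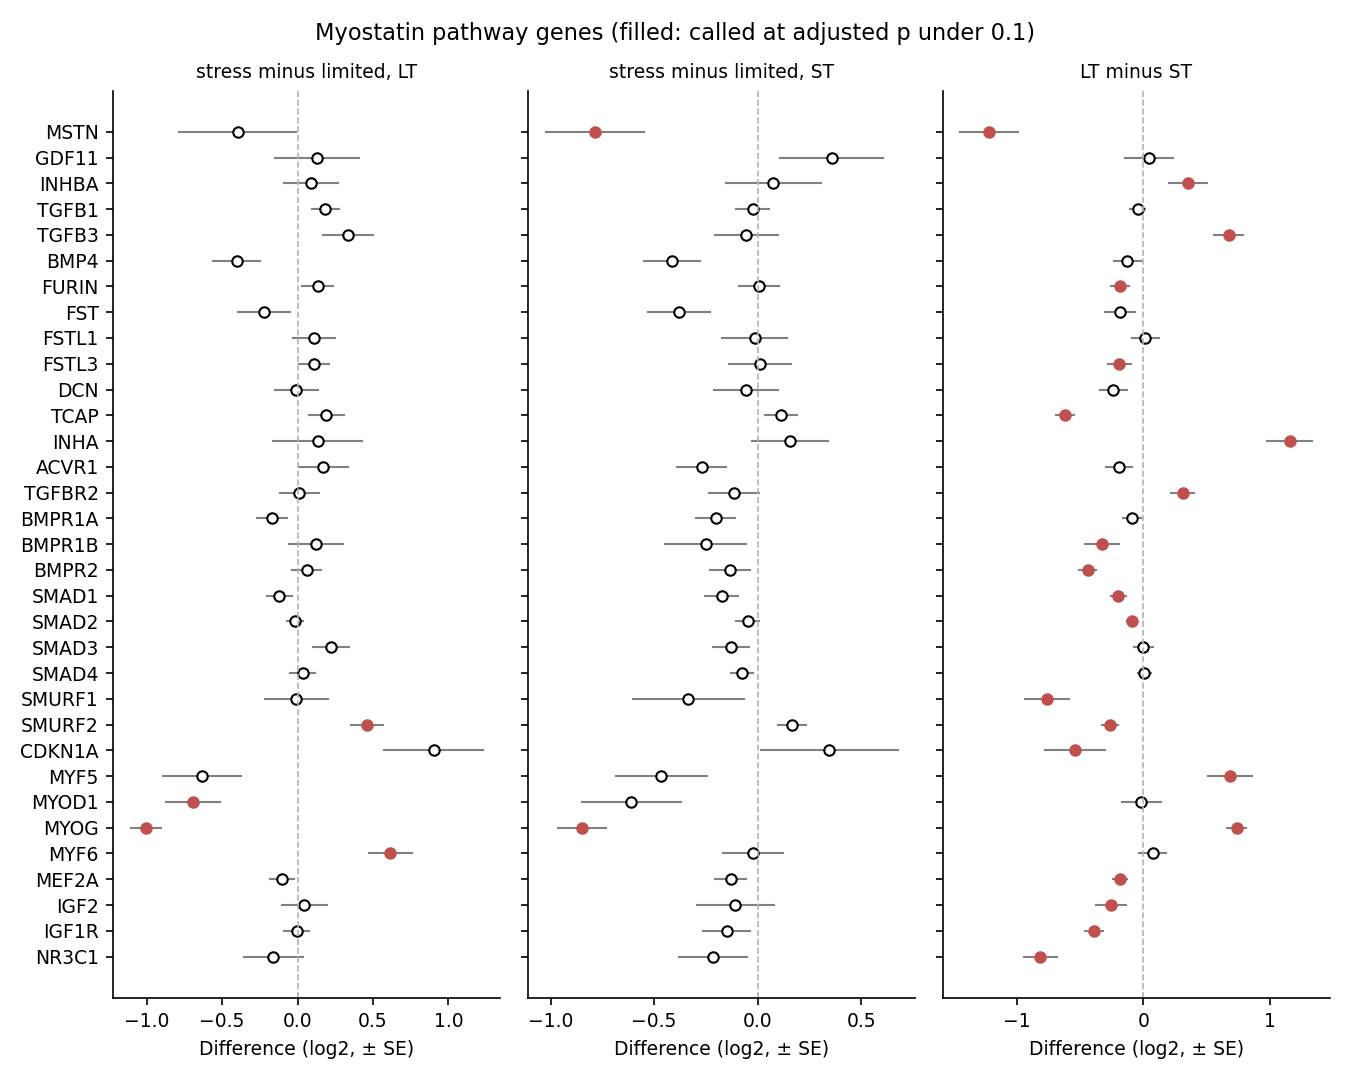
Log2 differences (± SE, limma) of MSTN and the 32 other tested pathway genes for stress in the LT, stress in the ST and LT minus ST. Filled points were called at an adjusted p under 0.1. Of the genes shown, MSTN and MYOG were called for stress in the ST, both lower.

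The genes downstream and the muscle regulatory factors held most of the stress calls. MYOG, which drives the differentiation of muscle cells, was lower in stressed cows in both muscles (adjusted p = 3.62e-08 for the LT and 1.16e-05 for the ST, limma), with log2 differences of -1.0 and -0.85. MYOD1 fell by 0.69 in the LT (adjusted p = 0.0261), and MYF6, a regulatory factor of mature fibres, rose by 0.62 there (adjusted p = 0.0108). In the ST these had -0.61 (adjusted p = 0.179) and -0.03 (adjusted p = 0.946). MYF5, another determination factor, had -0.63 and -0.47, and CDKN1A 0.90 and 0.35, with no call. NR3C1, named from the description of its probe, had -0.16 and -0.22 with stress and was lower in the LT than in the ST (-0.82, adjusted p = 4.90e-07). Over the whole list, 6 of 32 genes were higher and 14 lower in the LT than in the ST, where 21.9% and 29.9% of all transcripts were, with a median of -0.15 against -0.03 over all transcripts. Of those not yet given, MYOG (0.74) and MYF5 (0.69) were higher in the LT. SMAD1 (-0.20), SMAD2 (-0.09), SMURF1 (-0.76) and SMURF2 (-0.26) were lower there. So were CDKN1A (-0.54), MEF2A (-0.18), IGF2 (-0.26) and IGF1R (-0.39). The adjusted p of these lower genes ranged from 5.64e-06 to 0.0679 (limma).

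No marker of another cell type passed the threshold for stress in the ST, where 3.60% of all transcripts did. In this muscle, 0 of 5 fat, 0 of 4 connective tissue, 0 of 2 satellite cell, 0 of 7 slow and 0 of 7 fast fibre genes were called for stress, nor were PECAM1 of endothelium and PTPRC of leukocytes. The summed signal of the fat list, in multiples of the 75th percentile, ranged from 2.44 to 14.3 in the ST of limited stress cows and from 1.82 to 10.4 in that of stressed cows, with medians of 3.78 and 3.39. The 5 fat genes nevertheless all had negative log2 differences with stress in the ST, with a median of -0.41 against -0.06 over all transcripts. ADIPOQ, the fat cell hormone adiponectin, had -0.75 (adjusted p = 0.281, limma) and FABP4, a fatty acid carrier of fat cells, had -0.63 (adjusted p = 0.442), beside -0.79 for MSTN. The summed signal of the connective tissue list ranged from 1.72 to 6.76 and from 1.01 to 11.04. The part of these tissues in the MSTN values was not tested.

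The genes whose level followed that of MSTN from cow to cow were ranked over 1845 named genes by the lower of the LT and ST correlations, with the group means removed. SHISA2, a membrane protein that dampens growth factor receptor signalling, came first, with r = 0.82 in both muscles (31 LT and 32 ST values). It kept the first place without cow321, with r = 0.73 in the LT and 0.74 in the ST. SHISA2 was also lower in the ST of stressed cows (-0.49, adjusted p = 0.0442, limma) and lower in the LT than in the ST (-0.38, adjusted p = 0.00257). In the LT of stressed cows it had -0.16 (adjusted p = 0.658).

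The other genes near the top, like SHISA2, had their lowest signal in cow321 in both muscles. They were AMPD1, the AMP deaminase of muscle (0.78 and 0.83), MPDZ, a scaffold protein (0.76 and 0.79), XYLT2, which starts proteoglycan chains (0.77 and 0.75), and EBP, a sterol isomerase (0.75 and 0.74). Without that cow their LT correlations were between 0.21 and 0.31, and those in the ST were 0.48 for AMPD1, 0.47 for MPDZ, 0.18 for XYLT2 and 0.34 for EBP. The most opposite were GABARAPL1, an autophagy protein (-0.77 and -0.74), LIMD2 (-0.73 and -0.71), TRIM54, a sarcomeric ubiquitin ligase (-0.67 and -0.67), TOP1, a DNA topoisomerase (-0.80 and -0.67), and PES1, a ribosome assembly factor (-0.66 and -0.74). All 5 had their highest signal in cow321 in both muscles. Without it the LT values lay between -0.50 (GABARAPL1) and -0.12 (LIMD2), and the ST values between -0.24 (PES1) and 0.29 (TOP1).

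Without cow321 the genes most like MSTN after SHISA2 were BMPR1B (0.64 in the LT and 0.66 in the ST), GALNT1 (0.61 and 0.65), a glycosyltransferase, FZD7 (0.57 and 0.55), a WNT receptor, and ODC1 (0.52 and 0.55), the first enzyme of polyamine synthesis. The most opposite were COQ7 (-0.64 and -0.62), of ubiquinone synthesis, NDUFB9 (-0.60 and -0.56), NDUFAB1 (-0.60 and -0.56) and ND1 (-0.57 and -0.56), of respiratory complex I, and HADHA (-0.55 and -0.57), of mitochondrial fatty acid oxidation. These correlations describe the cows at hand and share the arrays, so no test is attached.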

How the data were processed

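The authors labelled RNA with Cy3, hybridized it to single-colour Agilent arrays and read them with Feature Extraction 10.1.1.1. Per the file headers, background subtraction and detrending were applied before the intensities were deposited, signals near background are surrogate values, and the arrays are neither scaled to each other nor log2 transformed. The deposited series table held the same intensities for 892800 of 892800 values within 0.1%.

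Here each array was divided by the 75th percentile of its processed signals and log2 transformed, because the median of the 536 features marked as controls in the files, the nearest match here to the control probes by which the study's methods scale, lay near background (1.73 to 6.36 units). Spots marked as uneven or as outliers were left out. The tested probes were those well above background on 11 or more of the 32 arrays of a muscle. There were 10441 in the LT and 10305 in the ST. They were compared with limma 3.58.1 in R 4.3.3, with 4 groups per muscle or 8 groups over both. The main fit over both had no term for the cow. Only the fit of 4 groups was checked on simulated data, made from the values of LT probes. The Benjamini-Hochberg adjustment ran over all probes of a comparison. A call needed an adjusted p under 0.1, with 1 sign, in 80% or more of the probes of a transcript. Single values were compared with two-sided permutation tests in Python 3.11.15.

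Groups came from the sample labels, and the cow number pairs the muscles of an animal (correlation within cows over all probes 0.407). The period of slaughter is not in the labels and was not modelled. The gene, the gene lists and the tests were chosen with earlier results of these data known. Named genes are the pathway genes called in a comparison and 20 fixed ones where measured. Named too are the 3 fibre genes of each list with the largest difference and the slow fibre genes not higher in the LT. The 5 genes most like and most opposite to MSTN complete them. The probes of GDF11, SMURF1 and NR3C1 were named from their description. Pathway genes in cow321 and the ranking without it were chosen after their values were seen, as were the cows named. Alternatives were other scalings and filters, slide, scan day or cow as a block, the overlapping probe and each cow left out. The number of arrays limits the precision.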

Additional observations from a re-analysis of the deposited data

Results flagged for a closer look

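In the ST of stressed cows on the control diet, the MSTN signal of cow321 (1.32% of the 75th percentile) lay far below the other 7 cows: the distance to the nearest cow was 0.664 of the range of the group on the log2 scale, above Dixon's critical value of 0.526 for 8 samples. Of the 8 groups this was the only such value. Chance gives about 1 in 20 for each group, so no excess can be read from 1 value among 8 groups. In the LT the same cow was the lowest too, but cow265 was also low and the distance did not pass. The overlapping probe gave 1.11% in the same ST array. The cause was not tested.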

How the results depend on the processing

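The difference between the LT and the ST kept its direction and its call under every alternative that was run, from -1.22 to -0.90 on the log2 scale, and from -1.29 to -1.16 with each cow left out. Slide or scan day as a fixed block was not possible for it, because no slide or day held both muscles. Each probe alone is the main analysis, since 1 probe carries the name.

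The lower MSTN in the ST of stressed cows kept its direction throughout and lost its call with the median of the control features (-0.69, adjusted p = 0.573, limma), with no scaling (-0.64, adjusted p = 0.197), with the slide (-0.74) or scan day (-0.70) as a block and with the cow as a replicate block (-0.79, adjusted p = 0.183). With each cow left out it ranged from -0.86 to -0.59, with adjusted p from 0.0248 to 0.131, over 0.1 without cow255, cow270, cow299, cow301, cow324 or cow331. Normexp with quantile normalization kept the call (-0.58, adjusted p = 0.0693). The median shift of all probes moved from -0.06 to 0.03 with the control features and to 0.09 with no scaling in the ST, from -0.05 to -0.23 with the control features in the LT, and from -0.02 to 0.17 and 0.11 for LT minus ST. The replicate block moved no other comparison of MSTN past the threshold.

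No setting gave a call for stress in the LT, for diet or for an interaction. The muscle by diet interaction, near 0, changed sign with normexp (-0.052), with the replicate block (-0.012) and with uneven spots kept (-0.13), and ranged from -0.11 to 0.14 with a cow left out. The LT diet effect ranged from -0.092 to 0.34 and the LT interaction of stress and diet from -0.11 to 0.75, negative without cow321.

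The correlation between the LT and the ST was 0.45 with the control features (adjusted p = 0.0695, permutation) and from 0.10, without cow321, to 0.73 with a cow left out. The correlation with fibre type genes in the LT was -0.0080 with the control features, -0.046 with no scaling and -0.24 with slide means removed, and from -0.067 to 0.23 with a cow left out. In the ST it ranged from -0.14 to 0.37. The difference in spread between stressed and limited stress cows in the ST passed the threshold of 0.05 with normexp (0.25, permutation p = 0.0220) and with the overlapping probe (0.37, p = 0.0340), and ranged from 0.15 to 0.37 with a cow left out, past the threshold without cow259, cow260, cow269 or cow305. That between LT and ST passed with uneven spots kept (0.26, permutation p = 0.0381), and ranged from 0.17 to 0.25, past the threshold without cow259, cow268, cow299 or cow311. The overlapping probe, uneven spots kept, the random slide block and the alternatives for the fibre correlation were chosen after seeing the data.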
